A study of Mus musculus with 2 samples.

Results

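The PARP family transfers ADP-ribose from NAD+ to proteins and nucleic acids. The 10 genes described here are 8 PARP genes named as such (Parp2, Parp3, Parp8, Parp9, Parp10, Parp11, Parp12 and Parp14), Zc3hav1, which encodes the zinc-finger antiviral protein ZAP (PARP13), and Dtx3l, which encodes the ubiquitin ligase partner of PARP9. They were chosen by symbol, with earlier results of these data known, among the 22060 genes of the deposited count table, and all 10 were found. The set is not the whole family, and 7 PARP genes outside it are described below. The study profiled RNA of macrophages grown from bone marrow, in 2 genotypes, a STAT2 T403A group (threonine 403 of STAT2 replaced by alanine) and a wild-type (WT) group. Each group is 1 library. Cells of both came from C57BL/6 mice aged 8 weeks, were grown from marrow for 7 days with M-CSF, and were left untreated (0 h). The sources used here do not say how the allele was made, what sex the mice were or how many animals went into a library.

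PARP enzymes fall into several kinds. PARP2 and PARP3 act in the nucleus at DNA breaks, where PARP2 builds chains of ADP-ribose. Most of the others attach single ADP-ribose units. PARP9, PARP14 and their kin carry macrodomains, which bind ADP-ribose, and ZAP has lost catalysis and instead binds CpG-rich viral RNA. Several of these genes are known as targets of type I interferon, whose receptor signals through complexes that contain STAT2 and IRF9, in macrophages as in other cells.

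Promoter sequence was compared early because binding of STAT2-containing complexes is classically described at the interferon-stimulated response element. RefSeq promoter windows (GRCm38.p6, 250 bases before to 50 after an annotated start) were matched for 7 of the 10 genes, in 8 windows: Parp2, Parp3, Parp8, Parp11 (2 windows), Parp12, Dtx3l and Zc3hav1. Its core letters, searched on both strands, are GAAA, any 2 bases and GAAA again. They were found in 1 of these 7 genes, Parp11, in 1 of its 2 windows and so in 1 of the 8 windows. There they lay at bases -44 to -35 from the start, reading on the strand opposite to the gene. The same letters occurred in 1131 of all 32851 windows (3.44%). A gamma-activated site (TTCNNNGAA, palindromic) also lay in that Parp11 window, at -37 to -29, overlapping the response element; 8.30% of all windows hold those letters. With 1 mismatch allowed, 5 of the 8 windows matched the response element core, against 35.4% of all windows. They belong to Parp2, Parp3 and Parp8, none of which was lower in T403A, and to Parp11 and Dtx3l, 2 of the 4 lower genes with a window. The 110 bases before the start of 3 genes that were lower in T403A are printed 5′ to 3′ on the gene's strand, to set the only exact match beside windows with none; capitals mark that match. The Parp11 stretch is chr6:127446730-127446839 on the plus strand, that of Parp12 chr6:39118350-39118459 and that of Zc3hav1 chr6:38354604-38354713, both on the minus strand.
Parp11: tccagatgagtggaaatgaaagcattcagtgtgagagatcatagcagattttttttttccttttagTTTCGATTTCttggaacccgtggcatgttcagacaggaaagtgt
Parp12: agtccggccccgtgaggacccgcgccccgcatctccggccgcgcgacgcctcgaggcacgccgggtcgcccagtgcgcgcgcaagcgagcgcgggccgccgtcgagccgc
Zc3hav1: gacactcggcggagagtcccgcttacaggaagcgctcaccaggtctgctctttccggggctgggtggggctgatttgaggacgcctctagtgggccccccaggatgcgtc
The stretches also differ in base composition, with a G and C content of 39.1% for Parp11, 81.8% for Parp12 and 65.5% for Zc3hav1. A match in letters is a description and not a binding site.

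The libraries held 18658381 counts for T403A and 16033032 for WT. Values are given as CPM after TMM scaling, and ratios as T403A over WT with an exact 95% interval for counting error. With 1 library per group there is no replicate check and no p-value, so every difference is between these libraries. All 10 genes passed the minimum of 20 summed counts, as did 11199 genes in all. A gene was counted as lower or higher when it differed by at least 1.5-fold and its interval excluded a ratio of 1, and as neither when it failed at least 1 of these conditions. The labelled cell type was checked against markers: all 8 macrophage markers were detected in both libraries, led by Lyz2 at 29804 CPM in T403A and 36620 CPM in WT, and 5 T and NK cell markers were at 0 counts in both. The 8 neutrophil markers summed to 176 CPM in T403A and 288 CPM in WT, mostly Csf3r, which macrophages also express. Marker sums of B cells, dendritic cells, stromal cells, erythroid and megakaryocyte cells, and mast cells and basophils were at most 16.2 CPM in T403A and 34.7 CPM in WT. The highest of these was the erythroid and megakaryocyte sum in WT, nearly all of it Pf4. Stat2, the gene carrying the substitution, was at 84.4 CPM in T403A and 376 CPM in WT, a level that does not check the label of a single amino acid change.

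Most of the set was lower in T403A. Of the 10 genes, 7 were lower (Parp14, Parp12, Parp9, Dtx3l, Parp10, Parp11 and Zc3hav1), none was higher, and Parp2, Parp8 and Parp3 were counted as neither. Among all 11199 measured genes, 10.8% were lower and 13.5% higher by the same rule (1214 and 1515 genes). At 2-fold, 6 of the 10 were lower and none higher, beside 6.08% lower and 7.21% higher of all measured genes. The median log2 ratio was -1.42 over the 10 genes and 0.01 over all measured genes. Together the 10 genes took 0.0969% of T403A counts (95% Wilson interval 0.0955 to 0.0983) and 0.253% of WT counts (0.250 to 0.255). Parp14 held a large part of this sum. The 9 genes without it took 0.0653% of T403A counts (0.0641 to 0.0664) and 0.138% of WT counts (0.136 to 0.139). In bulk RNA, fewer expressing cells and less RNA per cell cannot be told apart.

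**Figure D1:**
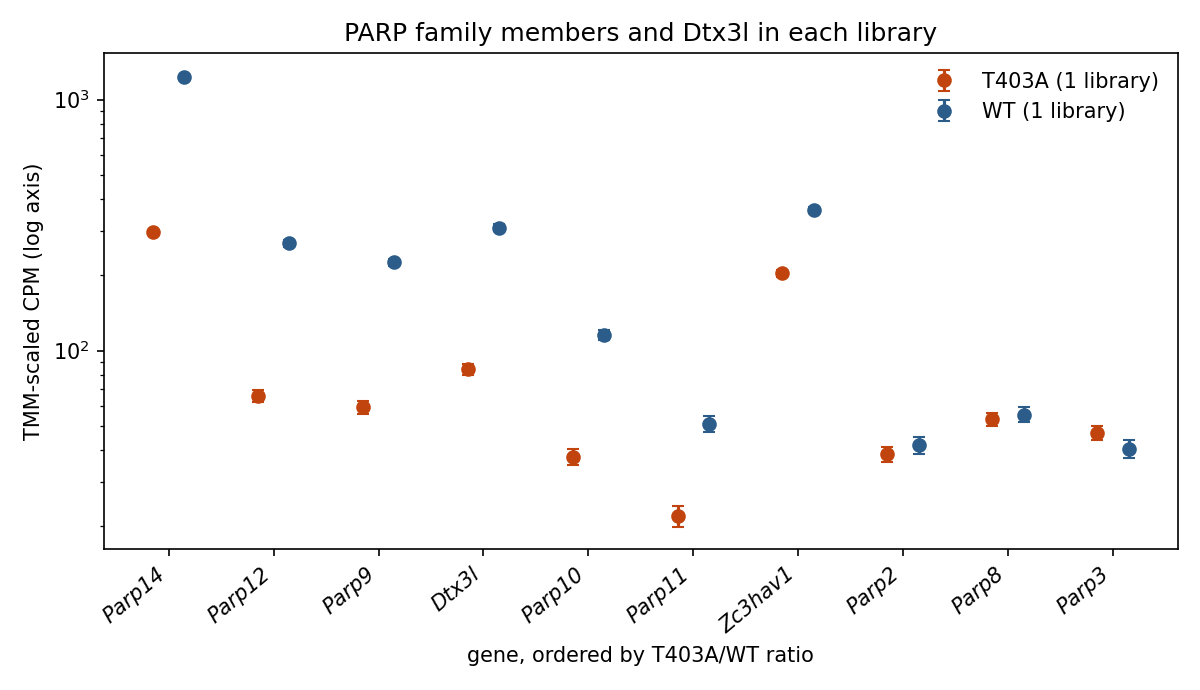
Level of each of the 10 genes in the T403A library (orange, left point) and the WT library (blue, right point), in TMM-scaled CPM on a log axis. Bars are exact 95% Poisson intervals for counting error; from Parp14 to Zc3hav1 the T403A point lies below the WT point, and for Parp2, Parp8 and Parp3 the points lie close together.

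Parp14, a large macrodomain protein known as a cofactor of STAT6, had the highest level per length of the set in both libraries. It had 5893 counts (296 CPM) in T403A and 18434 counts (1229 CPM) in WT, 4.16-fold lower (interval 4.04 to 4.28). Parp9, a macrodomain protein with little catalysis of its own, had 1185 counts (59.4 CPM) in T403A and 3374 (225 CPM) in WT, 3.78-fold lower (3.54 to 4.05). Its partner Dtx3l had 1679 counts (84.2 CPM) in T403A and 4639 (309 CPM) in WT, 3.67-fold lower (3.47 to 3.89). On the log2 scale the ratios of Parp14, Parp9 and Dtx3l were -2.06, -1.92 and -1.88. That range was not particular to macrodomain genes and the ligase partner, as Parp12, described next, lay within it at -2.02.

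Among the mono-ADP-ribosyltransferases without macrodomains, Parp12, a zinc-finger protein that restricts some RNA viruses, had 1317 counts (66.0 CPM) in T403A and 4016 (268 CPM) in WT. It was 4.05-fold lower (3.81 to 4.32). Parp10 had 749 counts (37.6 CPM) in T403A and 1736 (116 CPM) in WT, 3.08-fold lower (2.83 to 3.36). Parp11, the lowest of the set per length in T403A, had 436 counts (21.9 CPM) in T403A and 766 (51.1 CPM) in WT, 2.34-fold lower (2.07 to 2.63). This is the gene with the response element letters shown above. Its log2 ratio of -1.22 was nearer 0 than those of Parp12, whose window had no exact match, and Parp10, for which no window was matched. A link between these letters and the ratios was not tested. Zc3hav1, whose product ZAP directs decay of bound viral RNA, had 4048 counts (203 CPM) in T403A and 5453 (363 CPM) in WT. It was 1.79-fold lower (1.72 to 1.87), the only one of the 7 below 2-fold.

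The genes of the DNA break enzymes differed by less than 1.5-fold. Parp2 had 770 counts (38.6 CPM) in T403A and 628 (41.9 CPM) in WT, a ratio of 0.922 (0.829 to 1.03). Parp3 had 936 counts (46.9 CPM) in T403A and 609 (40.6 CPM) in WT, a ratio of 1.16 (1.04 to 1.28), whose interval excluded 1 but which fell short of 1.5-fold. Parp8, a member with few known roles, had 1060 counts (53.2 CPM) in T403A and 833 (55.5 CPM) in WT, a ratio of 0.957 (0.873 to 1.05). The sign of the 2 smallest differences depends on scaling: by library total, which adds 0.19 to every log2 ratio, Parp2 was at 0.08 and Parp8 at 0.13, where TMM gave -0.12 and -0.06. All 7 lower genes were lower by the same rule with that scaling too. Over all measured genes the split with that scaling was 890 lower and 2290 higher.

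**Figure D2:**
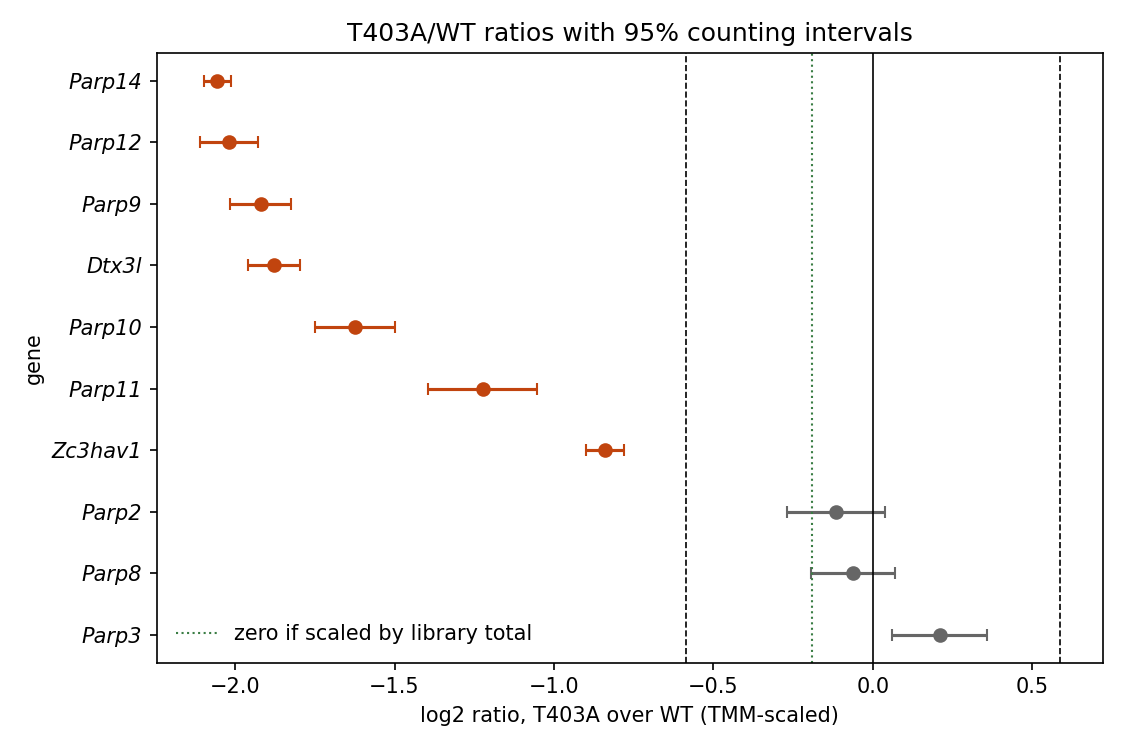
Log2 ratio of each of the 10 genes, T403A over WT, with 95% counting intervals. Orange points met the rule for lower, dashed lines mark 1.5-fold and the dotted line marks where 0 would lie with scaling by library total; the 7 orange points run from -2.06 (Parp14) to -0.84 (Zc3hav1), and the 3 grey points lie between -0.12 and 0.21.

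Against all measured genes, the log2 ratio of Parp14 lay at percentile 2.32, those of Parp12, Parp9 and Dtx3l at 2.39, 2.54 and 2.70, and those of Parp10, Parp11 and Zc3hav1 at 3.29, 4.89 and 7.72. Parp2, Parp8 and Parp3 were at percentiles 37.6, 42.8 and 67.2. The differences between genes were then compared within each library, where scaling cancels. In the order of their ratios the 10 genes form 9 adjacent pairs, and for each the ratio of ratios was given an exact conditional 95% interval. Because the pairs follow the order of the observed ratios, each value is below 1 by construction. The intervals hold counting error only and describe these 2 libraries. The intervals of the first 3 pairs, from Parp14 through Parp12 and Parp9 to Dtx3l, held 1: the ratio of ratios was 0.975 (0.910 to 1.05) for Parp14 over Parp12, 0.934 (0.852 to 1.02) for Parp12 over Parp9, and 0.970 (0.889 to 1.06) for Parp9 over Dtx3l. The interval of Parp2 over Parp8 also held 1 (0.964, 0.836 to 1.11). The other 5 adjacent intervals excluded 1. They were 0.839 (0.756 to 0.931) for Dtx3l over Parp10, 0.758 (0.654 to 0.879) for Parp10 over Parp11, 0.767 (0.675 to 0.870) for Parp11 over Zc3hav1, and the 2 given next. The step from Zc3hav1 to Parp2 was the widest (0.605, 0.540 to 0.679, Zc3hav1 over Parp2). The last such pair was Parp8 over Parp3, at 0.828 (0.721 to 0.951). A further 3 pairs were chosen after their values were seen. In these, the T403A over WT ratio of Parp14 was below that of the other gene. The ratio of ratios was 0.431 (0.409 to 0.453) for Parp14 over Zc3hav1, 0.883 (0.829 to 0.941) over Dtx3l and 0.910 (0.846 to 0.979) over Parp9.

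Parp9, Dtx3l and Parp14 share a locus on chromosome 16 (GRCm38). Dtx3l (35926511 to 35939151, minus strand) and Parp9 (35938470 to 35972605, plus strand) start head to head and their exons overlap by 458 bases, 8.00% of the Dtx3l length and 9.40% of the Parp9 length. The sources used here do not state whether counting used strand, so reads of that stretch cannot be assigned to either gene with certainty. Parp14 (35832874 to 35871544, minus strand) starts 66.9 kilobases from Parp9 and has 110 exon bases in common with an uncounted gene model. The number of Dtx3l and Parp9 counts kept nearly the same quotient in both libraries, with 0.706 Parp9 counts for each Dtx3l count in T403A and 0.727 in WT. The 3 genes together took 0.0469% of T403A counts (95% Wilson interval 0.0460 to 0.0479) and 0.165% of WT counts (0.163 to 0.167).

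The genes around that locus did not all share the difference. Within 250 kilobases of the Parp9 start, 6 further genes were measured, of which 2 were lower and none higher. Of all measured genes, 10.8% were lower and 13.5% higher. Fam162a, a mitochondrial protein gene, had 140 counts in T403A and 271 in WT (ratio 0.389, 0.315 to 0.478), and Hspbap1 had 130 counts in T403A and 154 in WT (ratio 0.635, 0.499 to 0.807). Kpna1, which encodes an importin and is the nearest of them at 40.3 kilobases from the Parp9 start, had 1492 counts in T403A and 1298 in WT (ratio 0.865, 0.802 to 0.932). Dirc2, Wdr5b and Ccdc58 had ratios of 0.983, 1.01 and 0.980.

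**Figure D3:**
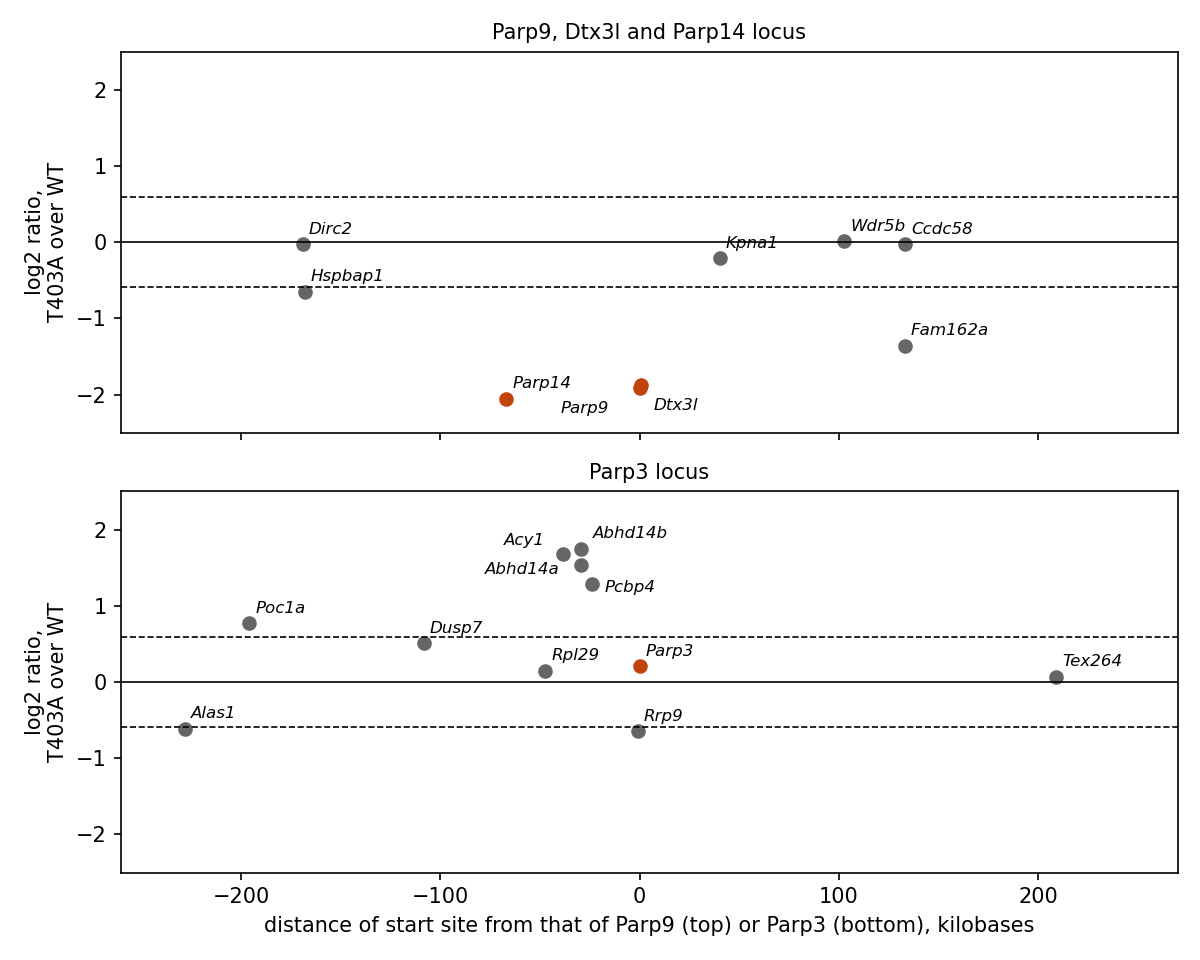
Log2 ratio, T403A over WT, of measured genes by the distance of their start from that of Parp9 (top panel) or Parp3 (bottom panel), in kilobases. Orange points belong to the 10-gene set and dashed lines mark 1.5-fold; Parp14, Parp9 and Dtx3l lie lowest in the top panel, and in the bottom panel 4 genes left of Parp3 lie between 1.29 and 1.75 while Parp3 is at 0.21.

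Over all 10 starts, 52 further genes were measured within 250 kilobases, of which 9 were lower (17.3%), 9 higher (17.3%) and 34 neither. The shares over all measured genes were 10.8% lower and 13.5% higher. Parp3 (chromosome 9, 106470322 to 106476949) had 10 such neighbours, 5 of them higher and 2 lower. The aminoacylase gene Acy1 had 44 counts in T403A and 10 in WT (ratio 3.31, 1.64 to 7.38), and Abhd14b had 309 counts in T403A and 69 in WT (3.37, 2.59 to 4.44). Abhd14a, Pcbp4 and Poc1a had ratios of 2.93, 2.46 and 1.71. Rrp9, which overlaps Parp3 by 20 exon bases on the opposite strand, was lower at 0.637 (0.509 to 0.797), and so was the heme synthesis gene Alas1 at 0.654. Near Parp2 (chromosome 14, 50807841 to 50821301) the purine nucleoside phosphorylase gene Pnp had 302 counts in T403A and 842 in WT (ratio 0.270, 0.236 to 0.308) and its homologue Pnp2 had 7 counts in T403A and 64 in WT (ratio 0.0823, 0.0318 to 0.180). The base excision repair gene Apex1 was also lower there (0.539, 0.396 to 0.731), while Klhl33, with 75 counts in T403A and 6 in WT, was higher (9.40, 4.12 to 26.4). Around the lower genes on chromosomes 6 and 15, Kdm7a near Parp12 was lower (0.556) and Grina near Parp10 was lower (0.637). Mroh1 near Parp10 was higher at 2.11, and so were Emb near Parp8 (1.54) and Zc3hav1l, the paralogue beside Zc3hav1 (2.39, 1.19 to 5.22, on 35 counts in T403A and 11 in WT). Parp10 (76231174 to 76243441) shares 205 exon bases with Plec on the same strand, 4.80% of its length; Plec itself had a ratio of 0.886 (0.865 to 0.908).

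Levels between genes were compared per length, as TMM-scaled CPM per kilobase of the deposited gene length, over 16 PARP genes including Zc3hav1 and 7 PARP genes outside the set. Parp14 had rank 1 in both libraries, with 31.8 CPM per kilobase in T403A and 132 in WT. In T403A it was almost level with Zc3hav1 (31.1 CPM per kilobase), a quotient of 1.02, whereas the quotient was 2.37 in WT, where Zc3hav1 was at 55.8. Parp12 had rank 4 in T403A with 16.5 CPM per kilobase and rank 2 in WT with 67.0. Parp9 had rank 7 in T403A (12.2) and rank 4 in WT (46.2), and Parp10 rank 12 in T403A (8.79) and rank 5 in WT (27.1). Parp1, the main DNA break sensor and no member of the set, had rank 3 in T403A at 22.9 CPM per kilobase and rank 6 in WT at 19.8. Parp3 had rank 6 in T403A (12.7) and rank 10 in WT (11.0), and Parp2 rank 9 in both (10.6 in T403A and 11.5 in WT). Parp8 (5.98 in T403A and 6.25 in WT) and Parp11 (3.11 in T403A and 7.27 in WT) were near the bottom in both libraries. Parp14 alone made up 15.5% of the per-length sum of the 16 genes in T403A and 30.5% in WT.

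**Figure D4:**
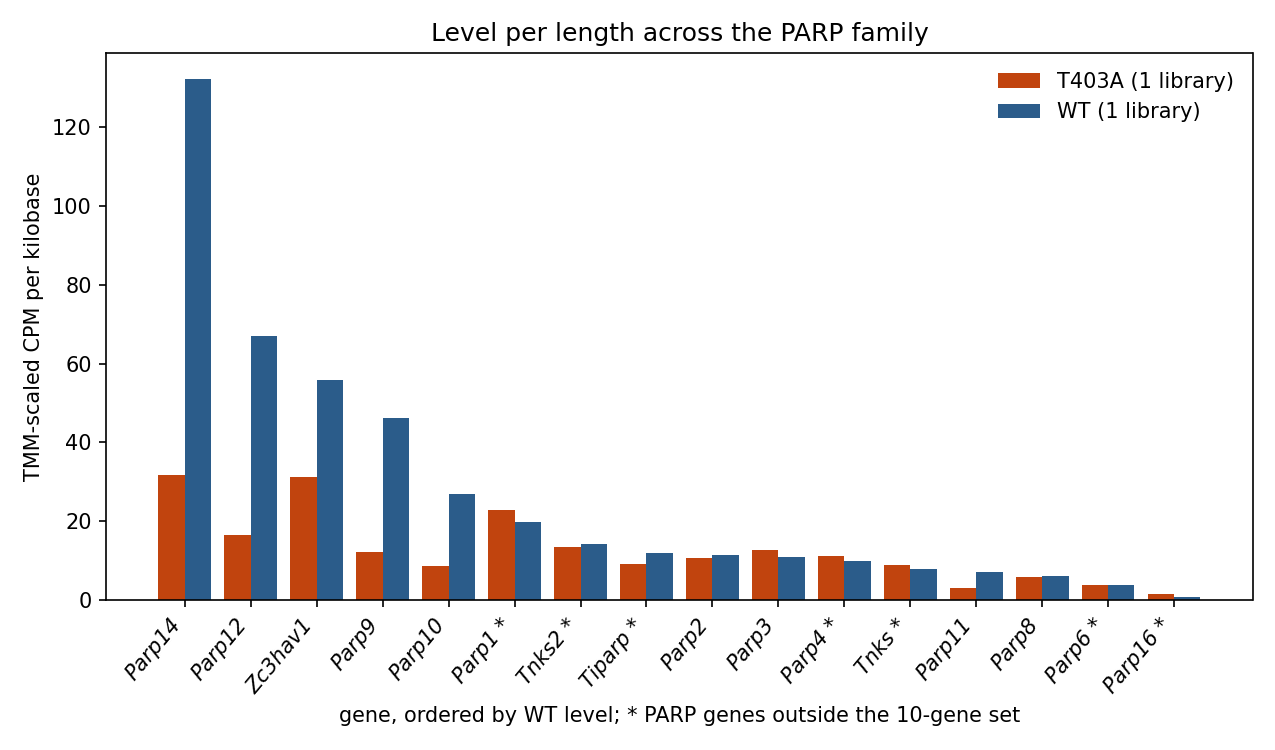
TMM-scaled CPM per kilobase of 16 PARP genes in the T403A library (orange, left bar) and the WT library (blue, right bar), ordered by the WT level. Asterisks mark the 7 genes outside the 10-gene set; the 5 tallest WT bars (Parp14, Parp12, Zc3hav1, Parp9 and Parp10) all exceed their T403A bars, while Parp1 is at 22.9 in T403A and 19.8 in WT.

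The 7 PARP genes outside the set had a median log2 ratio of 0.16. None was lower, 6 were counted as neither, and Parp16, an endoplasmic reticulum enzyme, was higher on 133 counts in T403A and 54 in WT (ratio 1.85, 1.34 to 2.59). Tiparp, a target of the aryl hydrocarbon receptor, had 801 counts in T403A and 779 in WT (ratio 0.774, 0.700 to 0.855). The tankyrase genes, whose products build chains outside the DNA damage response, had ratios of 1.14 for Tnks (1.08 to 1.22) and 0.954 for Tnks2 (0.902 to 1.01). Of 10 genes of PARP-linked DNA repair, 9 were counted as neither and none was lower (median log2 ratio 0.02). With 10.8% of all measured genes lower and 13.5% higher, finding none lower in lists of 7 and 10 genes is near the background. The scaffold gene Xrcc1 had a ratio of 1.12 (0.986 to 1.26) and Aptx one of 0.761 (0.641 to 0.902). Aplf, whose product binds ADP-ribose at breaks, was higher at 1.75 (1.28 to 2.43) on 135 counts in T403A and 58 in WT.

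Of 8 measured genes that remove ADP-ribose, 3 were higher, none was lower and 5 were counted as neither (median log2 ratio 0.07). Among all measured genes 10.8% were lower and 13.5% higher, so a count of 0 lower among 8 is near the background. With a minimum of 100 summed counts, which leaves out Macrod2, 2 of 7 were higher, beside 11.7% of all genes. Enpp1, a surface nucleotide pyrophosphatase that also degrades cGAMP, had 325 counts in T403A and 48 in WT (ratio 5.09, 3.75 to 7.05). The macrodomain hydrolase genes Macrod1 (318 counts in T403A and 132 in WT, ratio 1.81, 1.47 to 2.24) and Macrod2 (29 and 5 counts, ratio 4.36, 1.67 to 14.4) were the other two. Parg, which cuts ADP-ribose chains, was at 1.06 (0.957 to 1.18), and the arginine-specific hydrolase gene Adprh at 0.757 (0.699 to 0.821).

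Genes that make and spend NAD+, the substrate of PARP enzymes, went both ways. Of 7 measured NAD synthesis genes, 2 were lower and 1 was higher, against 1 lower and 2 higher with scaling by library total. Their median log2 ratio was 0.02. Nampt, the rate-limiting enzyme of NAD salvage, had 4997 counts (251 CPM) in T403A and 7974 (532 CPM) in WT, 2.12-fold lower (2.05 to 2.20). Nadk, which phosphorylates NAD to NADP, was 1.55-fold lower (1.51 to 1.59), and not lower by the rule with scaling by library total. Naprt was higher at 1.59 (1.16 to 2.19). Among 10 measured users of NAD other than PARP genes, 2 were lower and 4 higher. For both lists the shares over all measured genes were 10.8% lower and 13.5% higher. The ecto-enzyme gene Cd38 had 10 counts (0.501 CPM) in T403A and 409 (27.3 CPM) in WT, 54.4-fold lower (29.3 to 114), and its neighbour and homologue Bst1 had 161 counts in T403A and 337 in WT, 2.78-fold lower (2.30 to 3.38). The higher ones were Sirt2, Sirt3, Sirt5 and Sarm1, with ratios of 1.63, 2.04, 1.62 and 2.26. Sirt7, a nucleolar deacylase gene, was at 1.11 (1.02 to 1.20).

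Genes linked to ZAP and relatives of DTX3L were mixed as well. Of 8 genes linked to ZAP, including the paralogue Zc3hav1l, 2 were lower and 2 higher. The shares were 10.8% lower and 13.5% higher of all measured genes. At 2-fold, 2 were lower and 1 higher, beside 6.08% and 7.21% of all measured genes. With a minimum of 100 summed counts, which leaves out Zc3hav1l, 2 of 7 were lower and 1 higher, beside 10.6% and 11.7%. The median log2 ratio of the 8 genes was -0.04, and 0.15 with scaling by library total. The ubiquitin ligase cofactor Trim25 had 4419 counts (222 CPM) in T403A and 7162 (477 CPM) in WT, 2.15-fold lower (2.07 to 2.24). N4bp1, an RNA endonuclease gene, had 2741 counts (137 CPM) in T403A and 6134 (409 CPM) in WT, 2.97-fold lower (2.84 to 3.11). The higher ones were Zc3hav1l, given above, and Rbm38 at 1.70 (1.38 to 2.12), while the paralogue of N4bp1, Khnyn, was at 0.931 (0.852 to 1.02). Of the 3 other deltex ligase genes measured, none was lower and Dtx3 was higher, with 1273 counts in T403A and 445 in WT (ratio 2.15, 1.93 to 2.40). Dtx4 was at a ratio of 0.684 (0.643 to 0.728), short of 1.5-fold. In the interferon pathway list, 8 of 11 met the rule for lower and 0 that for higher. The shares over all measured genes were again 10.8% lower and 13.5% higher. The median of the interferon list was -1.45 on the log2 scale. Irf7 was 31.6-fold and Isg15 19.1-fold lower, beyond the range of the PARP genes, Ifnar1 was 1.93-fold lower, and the kinase gene Jak1 was at a ratio of 0.931 (0.898 to 0.966).

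**Figure D5:**
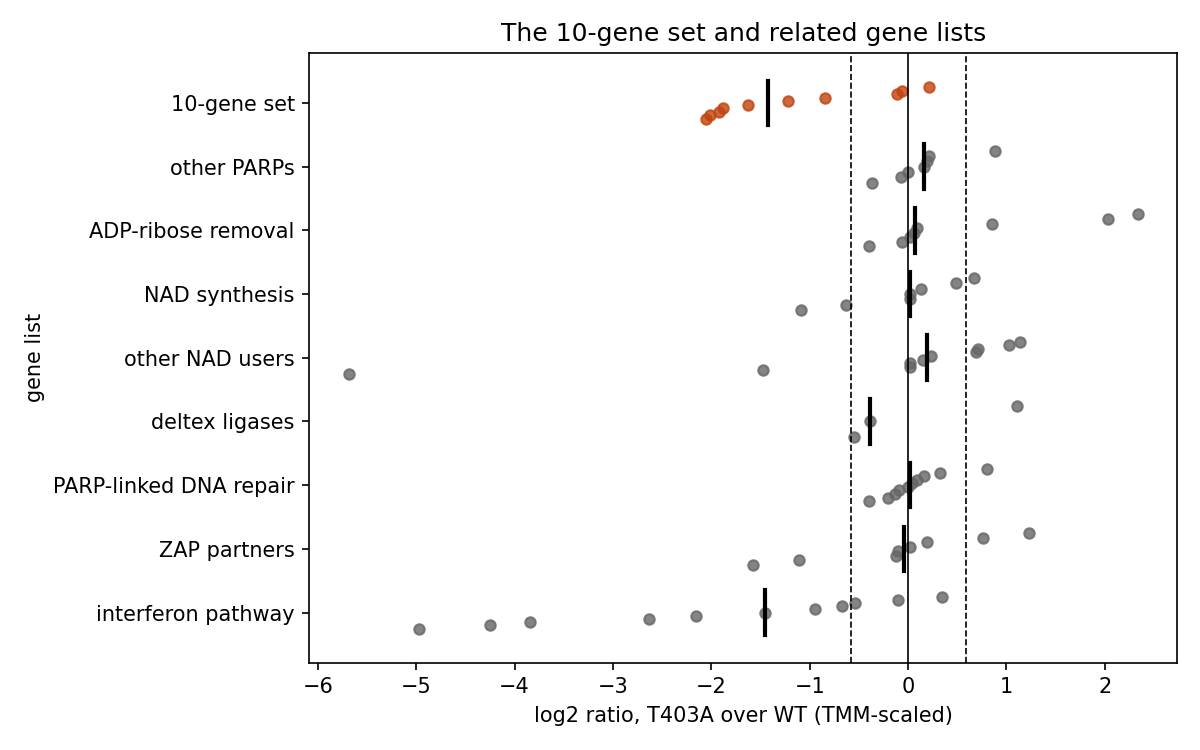
Log2 ratio, T403A over WT, of each measured gene in the 10-gene set (orange) and in 8 related lists (grey). Black bars are medians and dashed lines mark 1.5-fold; the 10-gene set has its median at -1.42 and the interferon pathway list at -1.45, while the medians of the other 7 lists lie between -0.39 and 0.19.

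Markers of macrophages moved in part with these values. Of the 8 macrophage markers, 3 were lower in T403A (Adgre1, Itgam and Cd14), none was higher and 5 differed by less than 1.5-fold. Among all measured genes 10.8% were lower and 13.5% higher. The sum of the 8 markers was 39368 CPM in T403A and 50319 CPM in WT. Most of it was Lyz2, at 29804 CPM in T403A and 36620 CPM in WT. Cd14 was at a ratio of 0.311. Of the 5 that differed less, Mertk was at 0.694, Csf1r, the M-CSF receptor gene, at 0.770 and Lyz2 at 0.814. The other markers, Cd68 at 1.25 and Fcgr3 at 1.19, went the opposite way, with intervals that excluded 1. Of the 8 neutrophil markers 2 were lower (Csf3r and Camp) and 2 higher (Ltf and S100a9), Elane was at 0 in both libraries and Mpo at 0 in T403A and 1 count in WT. Xcr1, Pdgfrb and Pf4 were the lower markers of dendritic, stromal, and erythroid and megakaryocyte cells, and Cpa3 and Kit the higher ones of mast cells and basophils; markers were counted without the minimum of 20 summed counts. The part of these differences in the PARP values was not tested.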

How the data were processed

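The deposited table gives raw counts of reads for each gene in 1 column per library, beside each gene's length. HTSeq 0.9.1, HISAT2, cutadapt 1.15 and DESeq 1.30.0 appear with build GRCm38 in the submitters' processing notes, without roles. Annotation release and strand setting: not given in the sources used here. Columns were matched to samples by title. Symbols came from a table of Ensembl identifiers (21949 of 22060 genes), and positions from GENCODE M21, on the same build. For 96.9% of genes the deposited length was equal to the exon union of that release.

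Counts were scaled with TMM (edgeR 4.0.16, R 4.3.3). Ratios carry exact Clopper-Pearson intervals (scipy 1.17.1), for counting error only, and log2 ratios a prior count of 0.5. A count of 0 allows 3 counts, 0.150 CPM in T403A and 0.200 CPM in WT. Alternatives were library totals, DESeq2 1.42.0 size factors, other count minimums, a 2-fold rule, a prior count of 2 and 1 motif mismatch. The calling step was run on simulated counts that held counting error only, scaled by library total. Such data cannot show how the calls would hold between replicate libraries. The 10 genes and all lists were chosen with earlier results of these data known. Named genes are the 10 genes, Stat2, the 2 largest ratios and 2 highest levels of each list, PARP genes meeting the rule and neighbours meeting it. Other named genes were chosen after their values were seen. Some genes of the lists are not reported here by name.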

Additional observations from a re-analysis of the deposited data

How the results depend on the processing

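The count of 7 lower and 0 higher genes among the 10 was the same with scaling by library total, with DESeq2 size factors, with no count minimum and with a minimum of 100. At 2-fold it was 6 lower and 0 higher, Zc3hav1 being the gene lost, beside 681 lower (6.08%) and 808 higher (7.21%) of all measured genes. The median log2 ratio of the 10 genes was -1.23 with scaling by library total, against -1.42, since that scaling adds 0.19 to each log2 ratio. It also changed the counts over all genes to 890 lower and 2290 higher, against 1214 and 1515. DESeq2 size factors and a prior count of 2 moved no ratio of the 10 genes outside its counting interval. The motif count of 1 gene was 5 genes with 1 mismatch allowed. No paired analysis was possible because each genotype has 1 library. The intervals hold counting error only, and leaving out a library was not possible.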
